A study of Mus musculus with 49 samples.

Results

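Cytosolic ribosomal proteins are described here in laser-captured hippocampal cell layers of the rTg4510 mouse, a model in which mutant human tau is made in forebrain neurons. The members were all genes whose single platform symbol begins with Rpl or Rps followed by a digit, together with Rplp0, Rplp1, Rplp2 and Rpsa. Symbols of ribosomal S6 kinases (Rps6k) and of numbered pseudogenes were left out, and a gene with several probe sets was read by its brightest over all 49 arrays. The rule found 69 genes among the 11807 named genes of the array, 45 of the large subunit and 24 of the small subunit. They were covered by 130 of the 22626 probe sets tested, no filter on low values was applied, and all 69 genes were tested. Mean log2 levels over all arrays ran from 2.95 for Rpl3l to 12.34 for Rps29, and 43 of the 69 genes had a mean of at least 10. On this array a probe set reads the 3-prime part of a transcript, so levels of different genes are not set against each other.

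A cytosolic ribosome is built from a small subunit, which holds the mRNA, and a large subunit, which joins amino acids, and each carries its own set of proteins around ribosomal RNA. The mRNAs of these proteins are abundant, are made in step with one another in most cells, and typically begin with a run of C and T bases (a 5-prime terminal oligopyrimidine tract) through which the mTOR pathway regulates their translation. In neurons, ribosomes lie in the cell body and along dendrites, and these mRNAs are among the most abundant in the cell body.

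The arrays came from 17 female mice of 6.1 months. DN mice (double negative, n = 6) carried neither transgene, and tTA mice (n = 5) had a tetracycline-controlled transactivator (Camk2a-tTA), driven by a promoter active in excitatory forebrain neurons. rTg4510 mice (n = 6) carried tTA together with the TRE-htau (P301L) responder, so only they made the human tau with the P301L change. The responder came from FVB/N and the tTA line from 129S6 breeders, so all 3 genotypes were littermates of a mixed cross, and no mouse here carried the responder alone. From most mice 3 layers were captured, the pyramidal cells of CA1, those of CA3 and the granule cells of the dentate gyrus (DG), giving 6, 5 and 6 DN arrays, 5, 5 and 5 tTA arrays and 5, 6 and 6 rTg4510 arrays of CA1, CA3 and DG.

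The captures matched their labels in DN mice, where all 4 measured dentate granule markers were called lower in CA3 than in DG, all 4 CA1 pyramidal markers higher in CA1 than in DG, and 3 of 4 CA3 pyramidal markers higher in CA3 than in DG. In tTA and rTg4510 mice the counts were 4 and 4, 4 and 3, and 3 and 3. A few transgenic captures stood apart from their group in the markers of another layer. The mean of the dentate granule markers was 6.27 in CA3 of rTg4510 mouse4549 (others 4.37 to 4.97) and 6.15 in CA1 of rTg4510 mouse4535 (others 4.76 to 5.12), and that of the CA1 pyramidal markers was 7.01 in CA3 of tTA mouse4592 (others 5.47 to 5.91). The median deviation of the ribosomal protein genes on these arrays was 0.12, 0.26 and 0.17 on the log2 scale, the highest of each group. The CA1 and DG arrays of tTA mouse4592 (0.34 and 0.51) and the DG array of rTg4510 mouse4549 (0.36) were also the highest of their groups. That DG array of mouse4592 had the highest CA1 pyramidal mean of its group as well, 6.72 (others 5.43 to 6.21). Among DN captures, the CA3 array of mouse4886 had a dentate granule mean of 5.15 (others 3.32 to 4.26). Its median deviation of -0.33 was not the highest of its group. The CA1 array of mouse4549 (0.08) and the CA3 and DG arrays of mouse4535 (-0.01 and 0.14) were not. Array medians were nearly equal, from 4.95 to 5.06 on the log2 scale, as the authors' normalization sets them, so a shift shared by all genes cannot be seen in these values. The DN animals were numbered mouse4797 to mouse4886 and the transgenic ones mouse4535 to mouse4666, and no hybridization batch is given in the sources used here. In a layer captured as a whole, fewer cells of a type and less RNA per cell cannot be told apart.

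The sequence around the start site was available from RefSeq (GRCm38.p6) for 56 of the 69 genes, in 67 windows of 300 bases, 250 before and 50 after the annotated start. The genes without a window were Rpl17, Rpl21, Rpl23a, Rpl29, Rpl3, Rpl30, Rpl36, Rpl7, Rpl8, Rplp1, Rps14, Rps20 and Rps29. The 6 stretches below, 60 bases before to 30 after the start, were chosen after the values were seen: Rplp0, Rpl13a, Rpsa and Rpl22l1 were higher in tTA than in DN mice in every subfield, and Rps6 and Rpl4 were called in none. Capitals mark CGGAAG or its reverse complement CTTCCG, the core of an ETS-type site, and runs of at least 8 C or T bases.
Rplp0, chr5:115559407-115559496, plus strand: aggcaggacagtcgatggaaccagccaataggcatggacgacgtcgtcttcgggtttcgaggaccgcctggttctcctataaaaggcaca
Rpl13a, chr7:45128716-45128805, minus strand: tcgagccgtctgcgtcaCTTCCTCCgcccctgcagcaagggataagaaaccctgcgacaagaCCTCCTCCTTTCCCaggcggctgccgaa
Rpsa, chr9:120127706-120127795, plus strand: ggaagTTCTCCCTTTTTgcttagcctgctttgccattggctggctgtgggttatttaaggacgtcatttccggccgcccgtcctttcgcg
Rpl22l1, chr3:28805448-28805537, plus strand: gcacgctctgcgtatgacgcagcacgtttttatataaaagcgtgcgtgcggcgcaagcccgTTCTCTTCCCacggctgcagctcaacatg
Rps6, chr4:86857338-86857427, minus strand: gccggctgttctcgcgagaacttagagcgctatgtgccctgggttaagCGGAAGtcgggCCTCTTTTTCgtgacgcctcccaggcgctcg
Rpl4, chr9:64173327-64173416, plus strand: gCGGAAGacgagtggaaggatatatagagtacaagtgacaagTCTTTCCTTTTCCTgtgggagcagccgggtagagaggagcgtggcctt
Over all windows of ribosomal protein genes, 62.7% held CGGAAG on either strand, against 16.9% of the 32851 promoter windows of the reference table. A run of at least 8 C or T bases on the printed strand lay in the last 80 bases of 70.1% of the windows, against 29.0% of all windows. CTTTCC or CTTTTC, which can lie within such a run, was found in the same 80 bases of 37.3% and 6.38%, and AAGATGG on either strand, the core of a YY1-type site, in 14.9% and 6.34%. Among windows of genes called higher in tTA than in DN mice in all 3 subfields, 54.1% of 37 held CGGAAG and 70.3% held the C and T run. Among windows of genes called higher in none, the shares were 77.8% of 18 and 66.7%. These are matches of letters in a window, given as a description.

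The first comparison asked how the transactivator line differed from mice with neither transgene. Ribosomal protein transcripts were higher in tTA than in DN mice in all 3 subfields: 44 of 69 genes were called higher in CA1, 45 in CA3 and 35 in DG, where 1 gene, Rpl15, was called lower. A call was an adjusted p under 0.05 in the limma fit of that subfield, with Benjamini-Hochberg adjustment over all 22626 probe sets. Of all probe sets, 7.31% were called higher in CA1, 4.12% in CA3 and 7.22% in DG. Shares of 8.85%, 4.97% and 9.44% were called lower. Among the 1099 probe sets with a mean of at least 10, 415, 282 and 363 were called in either direction. The median difference over the 69 genes was 0.42, 0.41 and 0.33 on the log2 scale, against 0.05, 0.03 and 0.03 over all probe sets, and 65, 66 and 64 genes lay above 0. Both subunits were in this pattern, with 17, 17 and 12 of 24 small subunit genes and 27, 28 and 24 of 45 large subunit genes called. In all, 34 genes were called higher in every subfield, 8 in 2 of them, 6 in 1 and 21 in none.

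The P0 stalk protein Rplp0 (probe set 1419441_at), which anchors the arm of the large subunit that recruits elongation factors, shows the size of the difference. In CA1 its log2 level was from 8.60 to 9.19 with a median of 8.76 over the 6 DN arrays, and 9.03, 9.32, 9.68, 9.75 and 10.004 on the 5 tTA arrays. In CA3 it was 8.72, 8.79, 8.80, 8.85 and 9.07 in DN mice and 9.71, 9.79, 9.79, 9.91 and 9.96 in tTA mice. In DG it ran from 9.06 to 9.68 with a median of 9.27 in DN mice and was 9.57, 10.17, 10.19, 10.21 and 10.43 in tTA mice. Every tTA array lay above every DN array in CA3, while the ranges overlapped in CA1 and DG. The difference was 0.75 (SE 0.17, adjusted p = 0.00651) in CA1, 0.99 (SE 0.09, adjusted p = 8.45e-05) in CA3 and 0.81 (SE 0.16, adjusted p = 0.00199) in DG. The partners of Rplp0 on the stalk rose as well, Rplp1 by 0.63, 0.99 and 0.67 and Rplp2 by 0.42, 0.62 and 0.45 in CA1, CA3 and DG.

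Rpl13a (1417608_a_at), a large subunit protein also known for a part in silencing inflammatory transcripts, was among the genes with the largest differences. In CA1 it ran from 8.05 to 8.84 with a median of 8.45 on the DN arrays and was 9.01, 9.12, 9.54, 9.68 and 9.98 on the tTA arrays. In CA3 its levels were 8.02, 8.08, 8.13, 8.18 and 8.40 in DN and 8.99, 9.24, 9.25, 9.49 and 9.54 in tTA mice. The groups did not overlap in CA1 or CA3. In DG the DN arrays ran from 8.59 to 9.33 with a median of 8.74 and the tTA arrays were 9.05, 9.81, 9.84, 9.98 and 10.07, where the lowest tTA array fell inside the DN range. The differences were 1.01 (SE 0.19, adjusted p = 0.00281), 1.14 (SE 0.13, adjusted p = 0.000139) and 0.93 (SE 0.19, adjusted p = 0.00304).

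In the small subunit, Rps14 (1436586_x_at), a component of the platform next to the mRNA exit, had the largest difference in CA3 and DG. Its 6 DN arrays ran from 10.52 to 11.30 with a median of 11.11 in CA1, against tTA arrays of 11.85, 11.95, 12.24, 12.31 and 12.51. In CA3 the DN arrays were 10.28, 10.56, 10.70, 10.83 and 10.94 and the tTA arrays 11.84, 11.85, 11.94, 12.22 and 12.24. The groups did not overlap in either layer. In DG the DN arrays ran from 10.78 to 11.74 with a median of 11.24 and the tTA arrays were 11.73, 12.27, 12.31, 12.35 and 12.60, so the lowest tTA array lay just under the highest DN array. The differences were 1.13 (SE 0.18, adjusted p = 0.000885), 1.35 (SE 0.16, adjusted p = 0.000214) and 1.01 (SE 0.18, adjusted p = 0.000945). Its suffix _x_at marks a set in which some probes match other sequences too, and Rps14 has no other probe set by which to check it. Rpsa (1448245_at), which sits on the small subunit and is also described as a laminin receptor precursor, moved by 0.86 (SE 0.11, adjusted p = 0.000137), 0.74 (SE 0.11, adjusted p = 0.000917) and 0.64 (SE 0.08, adjusted p = 4.57e-05). Its DG levels ran from 11.07 to 11.37 with a median of 11.20 in DN mice and were 11.77, 11.83, 11.83, 11.84 and 11.98 in tTA mice, with no overlap, and the groups were also apart in CA1 and CA3.

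Rpl22l1 (1417126_a_at), a paralog that can take the place of Rpl22 in the large subunit, had the largest difference in CA1. There the DN arrays ran from 8.88 to 9.84 with a median of 9.26 and the tTA arrays were 9.96, 10.23, 10.67, 10.71 and 10.79, above every DN array. The difference was 1.16 (SE 0.21, adjusted p = 0.00211) in CA1, 0.97 (SE 0.21, adjusted p = 0.00902) in CA3 and 0.86 (SE 0.22, adjusted p = 0.0127) in DG. Rpl22 itself (1416603_at) rose too, by 0.94, 0.83 and 0.57. The other paralogs on the array passed the test in no subfield: the differences of Rps27l were 0.50, 0.07 and 0.42, and those of Rpl36al 0.17, 0.14 and 0.12. Rpl3l, Rpl39l and Rpl7l1 had mean levels of 2.95, 3.75 and 5.07, the lowest of the 69, and differences between -0.25 and 0.21.

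**Figure D1:**
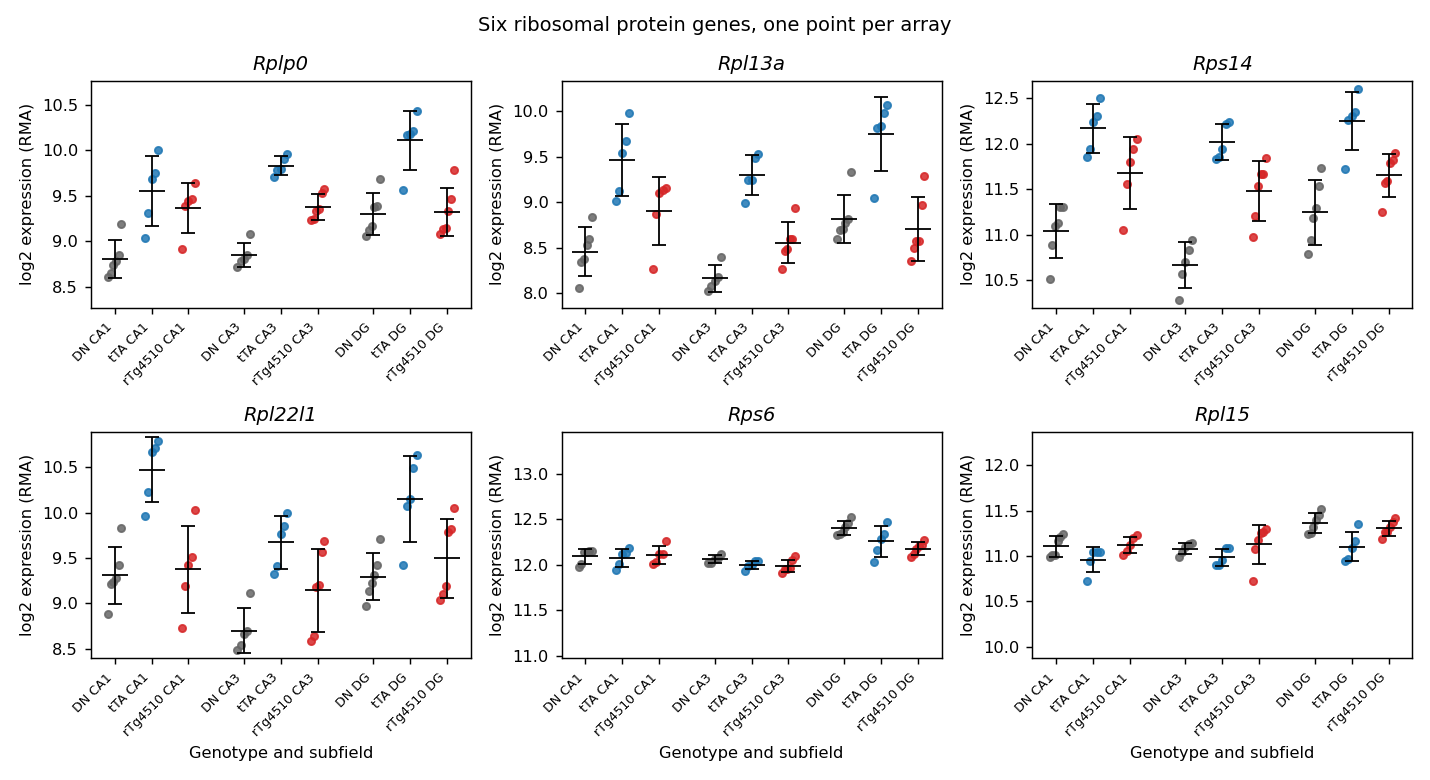
RMA log2 expression (y axis) of 6 ribosomal protein genes on each array, by genotype and subfield (x axis); points are arrays (DN grey, tTA blue, rTg4510 red), and the bar and whiskers are the group mean and SD. tTA arrays sit above DN arrays for Rplp0, Rpl13a, Rps14 and Rpl22l1 in most cases, while the Rps6 arrays of CA1 lie between 11.94 and 12.26 in all 3 genotypes. In DG the Rps6 arrays run from 12.33 to 12.53 in DN and from 12.09 to 12.27 in rTg4510 mice, a difference that was not called.

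The difference did not extend to every member. Rps6 (1416141_a_at), the small subunit protein phosphorylated after mTOR signalling, was 11.94, 12.01, 12.12, 12.13 and 12.18 on the tTA arrays of CA1, inside or next to the DN range of 11.97 to 12.15. Its tTA minus DN differences were -0.01 (SE 0.07, adjusted p = 0.905), -0.06 (SE 0.06, adjusted p = 0.565) and -0.15 (SE 0.08, adjusted p = 0.23). Rpl4 (1425183_a_at), a large subunit protein that lines the exit tunnel, differed by 0.04 (SE 0.07, adjusted p = 0.714), 0.06 (SE 0.08, adjusted p = 0.688) and 0.00 (SE 0.07, adjusted p = 0.992). A p that misses the threshold does not show that these levels are equal. The other genes called higher in no subfield were Rpl15, which was called lower in DG, and Rpl21, Rpl23, Rpl26, Rpl3, Rpl30, Rpl36a, Rpl37, Rpl6, Rpl7, Rps25, Rps29, Rps3a1, Rps4x and the 5 paralogs named above. The median mean level was 11.13 for the 21 genes called higher in none and 10.48 for the 34 called higher in all. Probe sets with an _x_at suffix were 5 of the 21 and 9 of the 34.

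Rpl15 depended on the probe set read. Its brightest probe set, 1434328_at (mean 11.13), differed by -0.26 (SE 0.08, adjusted p = 0.0428) in DG, the 1 called fall among the 69 genes. Its second, 1449255_a_at (mean 10.82), was higher in tTA mice by 0.49, 0.60 and 0.56 in CA1, CA3 and DG, each called. Rpl17 had a similar split in CA3, where 1423855_x_at (mean 9.88) differed by 0.57 and the dimmer 1423856_at (mean 5.23) by -1.07, both called. Of the 34 genes with several probe sets, the brightest was called in 21, 25 and 18 in CA1, CA3 and DG, and all probe sets of the gene were called the same way in 9, 12 and 6 of these. Among the called genes another probe set had the opposite sign in 3, 5 and 4 and was called in the opposite direction in 0, 1 and 1, those described here.

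Control probe sets and glial markers moved with this comparison, and their part in it was not tested. The 3-prime minus 5-prime difference of the 18S ribosomal RNA controls was lower in tTA than in DN mice by a mean of 0.347, 0.393 and 0.404 in CA1, CA3 and DG (exact two-sided permutation p = 0.00866, 0.00794 and 0.00433, each 0.0468 after adjustment over 27 such relations). The Actb controls differed the same way by 0.326, 0.183 and 0.310 (exact p = 0.0238, 0.151 and 0.00649, adjusted 0.0918, 0.226 and 0.0468). With the 18S difference as a covariate, an alternative added after the data were seen, 2, 3 and 16 ribosomal protein genes were called and the median difference was 0.22, 0.32 and 0.26. With the Actb difference as a covariate the counts were 4, 34 and 3 and the medians 0.27, 0.37 and 0.18. The share of all probe sets called in these covariate fits was not computed, so the fall in counts cannot be set against the whole array. The covariate and the genotype move together here, and their parts cannot be told apart. Of 10 microglia markers 4, 7 and 7 were called higher in tTA than in DN mice, of 8 astrocyte markers 5, 7 and 8 and of 9 oligodendrocyte markers 3, 0 and 3, with none lower. The mean level of the microglia list ran from 5.20 to 5.66 in DN and 5.75 to 6.11 in tTA mice in CA1, from 4.89 to 5.28 and 5.53 to 6.31 in CA3, and from 5.09 to 5.63 and 6.41 to 7.06 in DG.

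Leaving out 1 array at a time kept 30 of the 44 genes called higher in CA1, 38 of 45 in CA3 and 22 of the 36 called in either direction in DG in every fit, and the count of calls ranged from 32 to 46, 38 to 46 and 23 to 40. The lowest DG count, 23, came without tTA mouse4592. Without the CA3 array of that mouse, which stood apart in CA1 pyramidal markers, 38 genes were called in CA3.

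**Figure D2:**
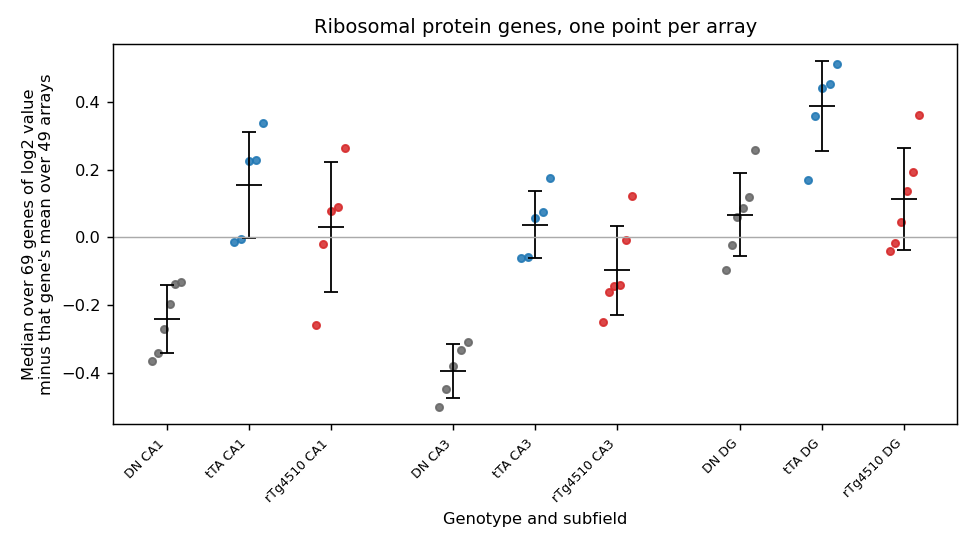
Median over the 69 genes of the log2 value minus each gene's mean over all 49 arrays (y axis), by genotype and subfield (x axis); each point is an array, and the bar and whiskers are the group mean and SD. DN arrays lie between -0.36 and -0.13 in CA1, -0.50 and -0.31 in CA3 and -0.10 and 0.26 in DG. The tTA arrays of CA1 and CA3 all lie above them.

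Genes of other parts of the translation machinery were read beside the shares of all probe sets called, 7.31%, 4.12% and 7.22% higher and 8.85%, 4.97% and 9.44% lower in CA1, CA3 and DG. Fau, whose product yields the small subunit protein eS30, was the only component under another name that was measured, and it was higher in tTA than in DN mice by 0.49 (adjusted p = 0.00514), 0.50 (0.000905) and 0.52 (0.00525). Of 10 elongation factor genes, 2 were called higher in each subfield and none lower: Eef1b2, an exchange factor for eEF1A, by 0.49, 0.28 and 0.32, and Eif5a, which helps ribosomes past proline runs, by 0.41, 0.43 and 0.42. Of 30 initiation factor genes, 5, 1 and 3 were called higher and 3, 2 and 3 lower. Eif3h, an eIF3 subunit, rose by 0.49, 0.44 and 0.48, while the scaffold gene Eif4g3 fell by 0.85, 0.70 and 1.04. Of 30 ribosome assembly factor genes, 2, 1 and 1 were called higher and 2, 3 and 9 lower. Nmd3, the export adaptor of the large subunit, fell by 0.62, 0.68 and 0.62, and Nop58, of the box C/D snoRNP, by 0.55, 0.39 and 0.47, while Nhp2, of the box H/ACA snoRNP, rose by 0.64, 0.35 and 0.66.

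Of 11 genes of RNA polymerase I and its factors, 0, 0 and 0 were called higher and 0, 1 and 1 lower in CA1, CA3 and DG (limma). The called genes were Polr1a, the largest subunit, at -0.85 in CA3 and Ubtf, the rDNA architectural factor, at -0.51 in DG. Of 12 regulators of ribosomal protein mRNA, 1, 0 and 0 were higher and 0, 2 and 2 lower. The S6 kinase gene Rps6kb2 rose by 0.45 in CA1, and Tsc1, an inhibitor of mTOR complex 1, and the kinase gene Rps6ka3 fell in CA3 (by 0.70 and 0.71) and in DG (by 0.46 and 0.60). Mitochondrial ribosomal proteins, which serve the separate ribosome of that organelle, were called higher for 12, 5 and 8 of 70 genes and lower for 0, 0 and 3, with medians of 0.16, 0.12 and 0.11.

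**Figure D3:**
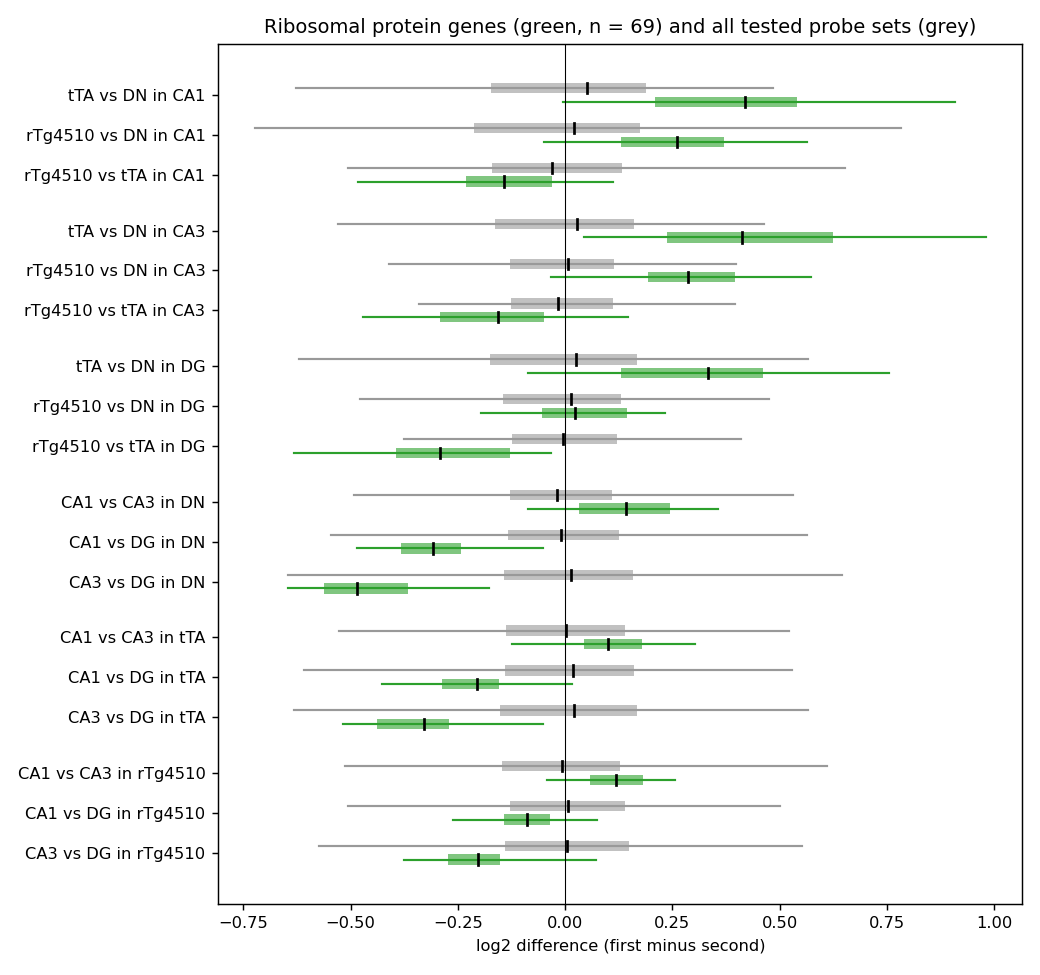
log2 differences (x axis) in the 18 comparisons of genotypes or subfields (y axis), for the 69 ribosomal protein genes (green) and for all 22626 tested probe sets (grey); the black tick is the median, the bar the middle part from the 25th to the 75th percentile and the line the 5th to the 95th. The green medians lie at 0.42, 0.41 and 0.33 for tTA against DN and at -0.49 for CA3 against DG in DN mice, where the grey medians lie at 0.05, 0.03, 0.03 and 0.01.

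The second comparison asked what mutant tau added to the transactivator, and its tTA arrays are the same as those set against DN mice above. In rTg4510 mice the called ribosomal protein genes were lower than in tTA mice. There were 5 such genes in CA1, 7 in CA3 and 9 in DG. None was called higher. Of all probe sets, 4.62% were called lower in CA1, 0.491% in CA3 and 0.336% in DG. Among the 1099 probe sets with a mean of at least 10, 148, 13 and 23 were called in either direction. In CA1 that share was larger than the share of members called. The median difference over the 69 genes was -0.14, -0.16 and -0.29, against -0.03, -0.02 and -0.01 over all probe sets, and 56, 58 and 67 genes lay below 0. At an unadjusted p under 0.05 the counts were 15, 24 and 39. The share of all probe sets at that threshold was not computed, so these counts have no background beside them.

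The genes called lower were Rpl14, Rpl22l1, Rpl29, Rpl3 and Rpl9 in CA1. In CA3 they were Rpl13, Rpl13a, Rpl29, Rpl37a, Rpl9, Rplp0 and Rps2, and in DG Rpl11, Rpl13a, Rpl17, Rpl19, Rpl29, Rpl9, Rplp0, Rps2 and Rpsa. Rpl9 and Rpl29, both of the large subunit, were called in all 3 subfields. Of the called genes, 1, 4 and 5 in CA1, CA3 and DG had several probe sets, Rpl9 among them. All probe sets of the gene were called the same way in 0, 0 and 0 of these, and another had the opposite sign in 0, 1 and 2. The second probe set of Rpl9, 1436798_at, was called in no subfield. Rpl9 (1416420_a_at) in CA1 was 10.49, 10.61, 10.91, 10.95 and 11.07 on the tTA arrays and 9.99, 10.37, 10.41, 10.45 and 10.48 on the rTg4510 arrays, with every rTg4510 array below every tTA array. Its CA3 levels were 10.59, 10.63, 10.63, 10.85 and 10.93 in tTA mice and ran from 10.06 to 10.57 with a median of 10.22 in rTg4510 mice. In DG they were 10.83, 11.06, 11.07, 11.18 and 11.30 and ran from 10.39 to 10.87 with a median of 10.54. The groups were apart in CA3, and in DG the highest rTg4510 array exceeded the lowest tTA array. Rpl9 fell by 0.47, 0.47 and 0.51 (SE 0.12, 0.10 and 0.11, adjusted p = 0.0233, 0.0292 and 0.0454).

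Rpl29 (1448846_a_at), a peripheral large subunit protein, was 9.61, 9.75, 9.80, 9.93 and 10.06 on the tTA arrays of DG and ran from 8.91 to 9.56 with a median of 9.08 on the rTg4510 arrays, without overlap. It fell by 0.47, 0.47 and 0.69 (SE 0.12, 0.11 and 0.12, adjusted p = 0.0190, 0.0494 and 0.0191) in CA1, CA3 and DG. The largest single fall was that of Rpl22l1 in CA1, at -1.10 (SE 0.22, adjusted p = 0.00563). Its rTg4510 arrays there were 8.72, 9.19, 9.42, 9.51 and 10.03, spread over the DN range and overlapping the lowest tTA array of 9.96. In CA3 and DG it differed by -0.53 and -0.65 (adjusted p = 0.217 and 0.154). Rpl13a differed by -0.56 (SE 0.20, adjusted p = 0.0918), -0.75 (SE 0.12, adjusted p = 0.00946) and -1.04 (SE 0.19, adjusted p = 0.0243). Its rTg4510 arrays of DG ran from 8.35 to 9.29 with a median of 8.57, all under the 4 higher tTA arrays.

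These calls rested on few arrays. Without rTg4510 mouse4535 no gene was called in DG, and without mouse4549 22 were. In CA1 the count ranged from 2, without rTg4510 mouse4666, to 7, and in CA3 from 2, also without rTg4510 mouse4666, to 7. Without the arrays that stood apart in the markers of another layer, 5 genes were called in CA1 (without rTg4510 mouse4535), 7 in CA3 without rTg4510 mouse4549 and 3 in CA3 without tTA mouse4592. Only Rpl22l1 in CA1 and 2 genes in CA3 were called in every such fit. When only the tTA and rTg4510 arrays entered the fit, 1, 0 and 0 genes were called. In CA1 cell type markers and control probe sets moved too: 8 of 10 microglia, 6 of 8 astrocyte, 6 of 9 oligodendrocyte and 7 of 9 interneuron markers were called higher with mutant tau than in tTA mice, and all 4 measured CA1 pyramidal markers lower. The 18S and Actb differences were higher in rTg4510 than in tTA mice by 0.133 and 0.221 (exact permutation p = 0.0397 and 0.0317, both 0.101 after adjustment), and 1 gene was called with either as a covariate. In CA3 4 microglia and 1 astrocyte marker were called higher and no oligodendrocyte, interneuron or pyramidal marker was called, and the microglia list ran from 5.53 to 6.31 in tTA and from 6.29 to 6.94 in rTg4510 mice. The part of these measures in the ribosomal protein values was not tested. In DG 9 genes were called with the 18S and 3 with the Actb covariate. The share of all probe sets called was not computed for these covariate fits. No microglia, astrocyte or oligodendrocyte marker was called between these genotypes in DG in the limma fit.

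The values against DN mice stand beside these. In rTg4510 mice 23 genes were called higher than in DN mice in CA1 and 16 in CA3, and none lower, where 11.1% and 1.91% of all probe sets were called higher. The medians were 0.26 and 0.29, with 64 and 63 genes above 0. Among the 1099 probe sets with a mean of at least 10, 402 in CA1 and 74 in CA3 were called in either direction. In CA1 that share was larger than the share of members called. In DG no gene was called in the limma fit, where 8.86% of all probe sets were called in either direction. At an unadjusted p under 0.05, for which the share of all probe sets was not computed, 9 genes passed. The methods' test of least significant difference called 3. The median there was 0.02, with 38 genes above 0 and 31 below. Rps14 differed from DN mice by 0.64 (SE 0.18, adjusted p = 0.0176) in CA1, 0.82 (SE 0.16, adjusted p = 0.00876) in CA3 and 0.41 (SE 0.17, adjusted p = 0.154) in DG. Rpl22 differed by 0.72 (SE 0.14, adjusted p = 0.00111), 0.64 (SE 0.13, adjusted p = 0.0112) and 0.28 (SE 0.14, adjusted p = 0.255). The paralog Rps27l was called higher than in DN mice in CA1, by 0.55 (limma, SE 0.19, adjusted p = 0.0431).

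These counts moved with single arrays and with the control covariates. Leaving out 1 array gave 10 to 37 calls in CA1, the fewest without rTg4510 mouse4535 and the most without rTg4510 mouse4600. In CA3 it gave 5 to 25, the fewest without DN mouse4866, 7 without rTg4510 mouse4549 and the most without rTg4510 mouse4653. With the 18S covariate 4 genes were called in CA1 and none in CA3 (limma), with medians of 0.16 and 0.20. With the Actb covariate 14 and 3 genes were called. For these fits too the share of all probe sets called was not computed. Glial markers moved with this comparison too. Of 10 microglia markers 10, 8 and 6 were called higher in rTg4510 than in DN mice in CA1, CA3 and DG, of 8 astrocyte markers 8, 6 and 7 and of 9 oligodendrocyte markers 9, 0 and 2, with none lower. The mean level of the microglia list ran from 6.94 to 7.94 in CA1, 6.29 to 6.94 in CA3 and 6.54 to 6.89 in DG of rTg4510 mice, above every DN array of the same layer. The 18S control difference was lower than in DN mice by 0.213, 0.329 and 0.391 (exact permutation p = 0.0606, 0.0130 and 0.00216, adjusted 0.126, 0.0584 and 0.0468). The part of these measures in the comparison was not tested.

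**Figure D4:**
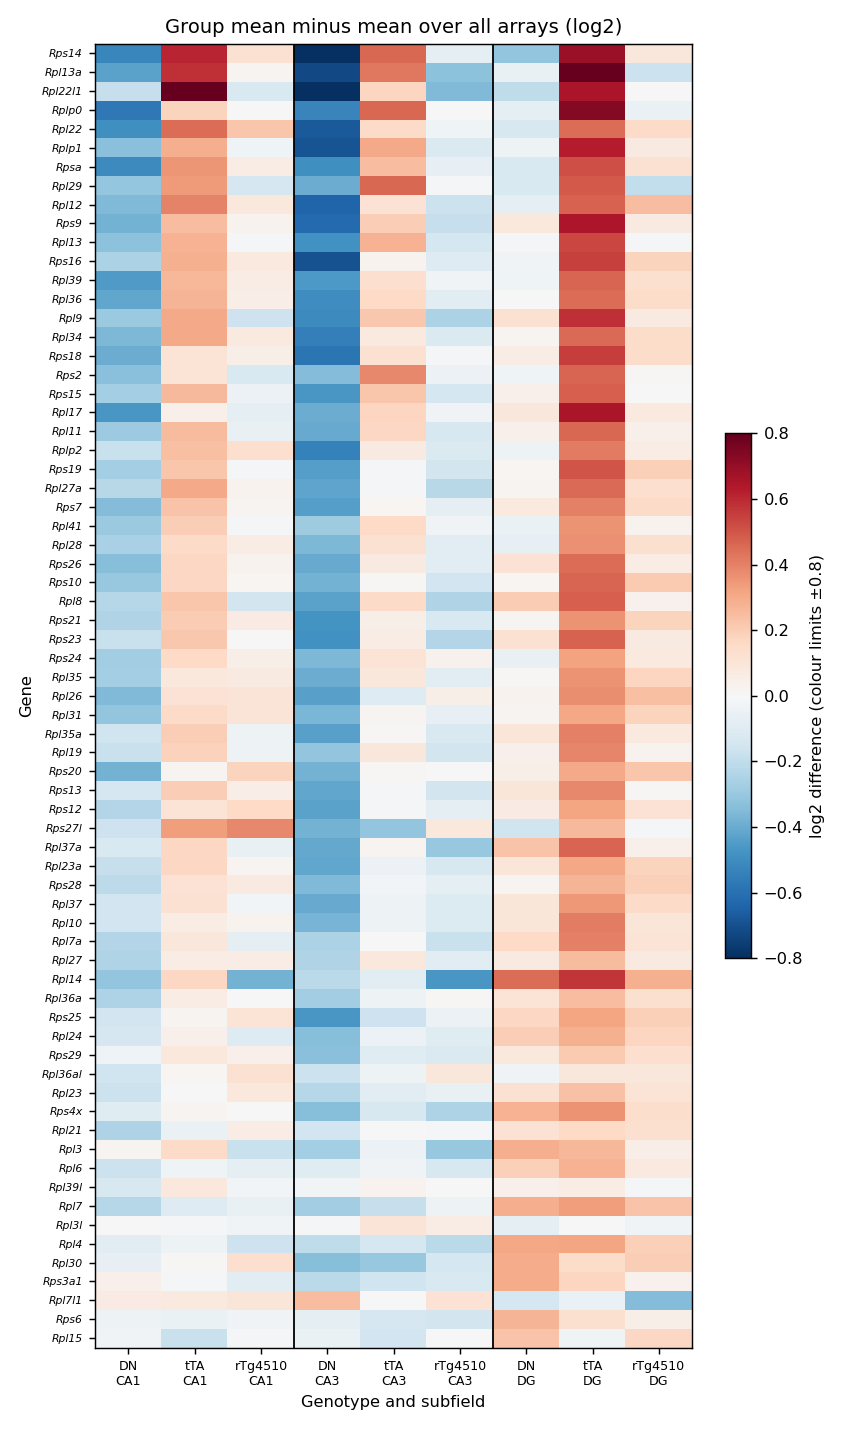
Each of the 69 genes (y axis) as its group mean minus its mean over all 49 arrays, on the log2 scale, in the 9 groups of genotype and subfield (x axis), ordered by the mean tTA minus DN difference over the subfields; red is above and blue below the gene's mean, and colours stop at 0.8. The tTA columns are redder than the DN columns of the same subfield for the upper genes, from Rps14 down, and the DN column of CA3 is the bluest.

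The third comparison asked how the 3 cell layers differ within a genotype. Ribosomal protein transcripts were highest in the dentate granule layer. In DN mice 62 of 69 genes were called lower in CA3 than in DG and 49 lower in CA1 than in DG, and none was called higher, where 10.4% and 8.59% of all probe sets were called lower. Between the pyramidal layers 12 genes were called higher in CA1 than in CA3 and none lower, against 6.26% of all probe sets higher. The median differences were -0.49 for CA3 against DG, -0.31 for CA1 against DG and 0.14 for CA1 against CA3, with medians over all probe sets of 0.01, -0.01 and -0.02. Among the 1099 probe sets with a mean of at least 10, 560, 456 and 308 were called in either direction in these 3 comparisons. For CA1 against CA3 that share was larger than the share of members called.

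The order DG, CA1, CA3 of the medians was the same in each genotype, with fewer calls in the transgenic mice. In tTA mice 43 genes were called lower in CA3 and 22 lower in CA1 than in DG, where 8.52% and 7.8% of all probe sets were, and the medians were -0.33 and -0.21. In rTg4510 mice the counts were 25 and 5, against 8.87% and 6.09%, and the medians -0.20 and -0.09. Among the 1099 probe sets with a mean of at least 10, 433 and 329 were called in either direction in tTA mice and 444 and 223 in rTg4510 mice. In rTg4510 mice these shares were larger than the shares of members called. Between CA1 and CA3, 4 genes were higher and 1, Rps2, lower in tTA mice (against 6.26% of all probe sets higher and 6.45% lower), and 2 were higher in rTg4510 mice (7.6% of all probe sets higher). The paralog Rps27l was among the 4 in tTA mice, at 0.65 (limma, SE 0.21, adjusted p = 0.0346). Within single mice, the median of the members was lower in CA3 than in DG in 5 of 5 DN, 5 of 5 tTA and 6 of 6 rTg4510 mice that gave both layers. It was lower in CA1 than in DG in 6 of 6, 5 of 5 and 3 of 5 mice, and higher in CA1 than in CA3 in 5 of 5, 4 of 5 and 3 of 5.

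Rps4x (1416276_a_at), an X-linked small subunit protein, had the smallest adjusted p among the members for CA3 against DG in DN mice. Its CA3 arrays were 10.85, 10.97, 10.98, 10.99 and 11.05 in DN mice, and its DG arrays ran from 11.52 to 11.70 with a median of 11.56. In CA1 it ran from 11.12 to 11.31 with a median of 11.24, so the 3 layers did not overlap. It was lower in CA3 than in DG by a difference of -0.62 (SE 0.06, adjusted p = 8.59e-12) in DN, -0.49 (SE 0.06, adjusted p = 4.64e-08) in tTA and -0.38 (SE 0.06, adjusted p = 6.58e-07) in rTg4510 mice.

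Rpl4 was called in the same direction in every genotype in both comparisons with DG. Its DG arrays ran from 11.50 to 11.68 with a median of 11.55 in DN mice, against 11.02, 11.04, 11.05, 11.05 and 11.12 in CA3, and were 11.45, 11.51, 11.55, 11.62 and 11.74 in tTA mice, against 10.94, 11.05, 11.15, 11.22 and 11.23 in CA3. No CA3 array reached any DG array of its genotype in these groups. CA3 against DG gave -0.51 (SE 0.06, adjusted p = 2.54e-09), -0.46 (SE 0.06, adjusted p = 2.77e-07) and -0.40 (SE 0.06, adjusted p = 3.80e-07), and CA1 against DG -0.40, -0.36 and -0.35, in DN, tTA and rTg4510 mice. Besides Rpl4, only Rpl24 and Rpl7 were called lower in CA1 than in DG in all 3 genotypes.

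For CA3 against DG, 25 genes were called lower in all 3 genotypes, among them Rpl3 and Rpl7a of the large and Rps6, Rps10 and Rps19 of the small subunit. Rps6, which did not pass the test between genotypes, differed between CA3 and DG by -0.35, -0.26 and -0.19. The 7 genes called in no genotype were Rpl29, Rps24 and the paralogs Rpl36al, Rpl39l, Rpl3l, Rpl7l1 and Rps27l. Across the 69 genes, the CA3 minus DG difference in DN mice correlated with that in tTA mice at r = 0.742 and with that in rTg4510 mice at r = 0.733, a description over genes that share their arrays, normalization and probe design. It was below 0 in both genotypes for 67 genes in DN and tTA mice and for 63 in DN and rTg4510 mice. The dim probe set 1423856_at of Rpl17 went the other way, higher in CA3 than in DG by 3.08 in DN mice, while the brightest differed by -0.49. Of the 34 genes with several probe sets, the brightest was called in 31, 21 and 13 in DN, tTA and rTg4510 mice. All probe sets of the gene were called the same way in 13, 6 and 3 of these. Another had the opposite sign in 7, 8 and 2 and was called in the opposite direction in 1, 2 and 0. For CA1 against DG 26, 13 and 2 were called, 9, 3 and 1 by all probe sets, with an opposite sign in 3, 2 and 0.

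**Figure D5:**
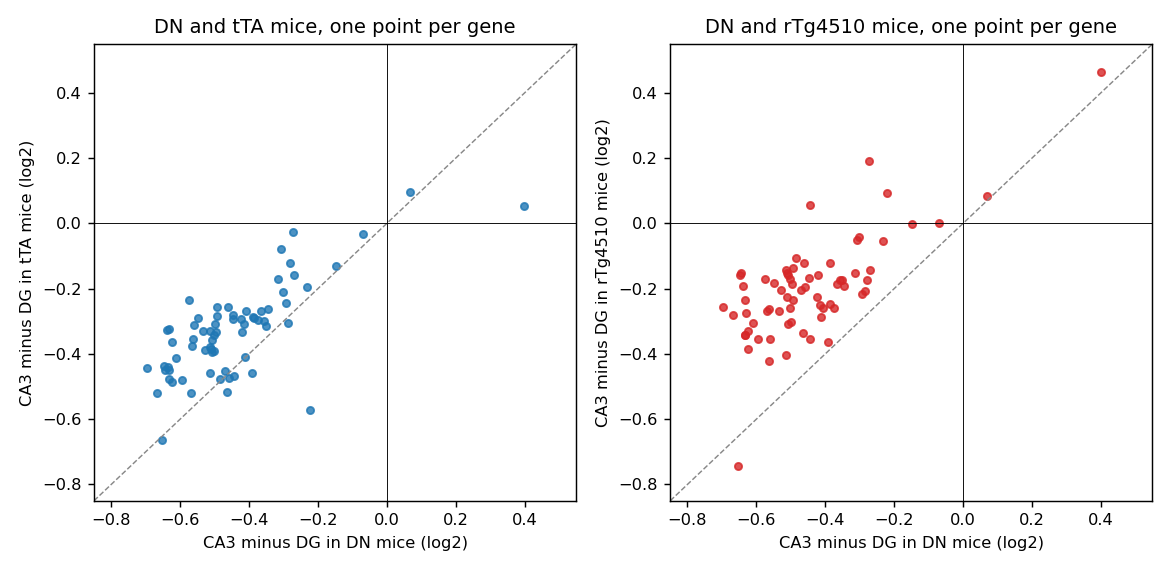
CA3 minus DG difference on the log2 scale of each of the 69 genes in DN mice (x axis) and in tTA or rTg4510 mice (y axis); points are genes and the dashed line marks equal differences. For 67 and 63 genes both differences are below 0, and 61 and 68 genes lie above the dashed line.

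Leaving out 1 mouse at a time gave 55 to 61 calls for CA3 against DG in DN mice, 25 to 50 in tTA and 16 to 23 in rTg4510 mice. The fewest in tTA mice, 25, came without mouse4580 and the fewest in rTg4510 mice, 16, without mouse4666. For CA1 against DG the ranges were 33 to 51, 8 to 19 and 2 to 5, with the fewest without DN mouse4806, tTA mouse4580 and rTg4510 mouse4666. For CA1 against CA3 in DN mice the range was 4 to 14, and 4 was without DN mouse4825, while the ranges of 1 to 5 in tTA and rTg4510 mice had their lowest without tTA mouse4626 and rTg4510 mouse4535. Glial markers differed between these layers as well: in CA3 against DG, 3 of 10 microglia and 3 of 8 astrocyte markers were called lower in DN mice, 6 and 7 in tTA mice and 0 and 4 in rTg4510 mice, while 2, 2 and 6 of 9 oligodendrocyte markers were called higher. Their part in the subfield difference was not tested.

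Whether a genotype difference itself differed between subfields was tested as a difference of differences on all 49 arrays. Of 6 such contrasts, 1 gave a call among the members: for rTg4510 against tTA, the difference of Rpl17 in CA1 minus that in DG was 0.46 (SE 0.14, adjusted p = 0.0457), where 3.2% of all probe sets were called higher. The median of this contrast over the 69 genes was 0.13, against -0.02 over all probe sets. In CA1 the levels of Rpl17 were 9.77, 9.88, 9.89, 10.01 and 10.06 in tTA and 9.36, 9.79, 9.83, 9.99 and 10.05 in rTg4510 mice, which overlapped and differed by -0.12 in their means. In DG they were 10.28, 10.43, 10.62, 10.64 and 10.69 in tTA mice and ran from 9.78 to 10.20 with a median of 9.96 in rTg4510 mice, which did not overlap and differed by -0.57. No member was called without the mouse as a block. Leaving out 1 mouse at a time changed the count of called members in 9 of 11 fits, to between 0 and 3. Rpl17 did not keep its call in every such fit, and none was called without rTg4510 mouse4535. Its probe set here, 1423855_x_at, carries the suffix of sets in which some probes match other sequences too. In the other 5 contrasts limma called 0 members. For rTg4510 against tTA, 3.88% of all probe sets were called in CA1 minus CA3 and 0.00884% in CA3 minus DG. For tTA against DN, the shares called were 0.72%, 1.65% and 1.24% in CA1 minus CA3, CA1 minus DG and CA3 minus DG. At an unadjusted p under 0.05, a looser threshold, 1 and 3 members passed for rTg4510 against tTA and 1, 1 and 1 for tTA against DN. The share of all probe sets at that looser threshold was not computed.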

How the data were processed

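RNA from laser-captured CA1, CA3 and DG cell layers was amplified with a whole-transcriptome kit and hybridized to Affymetrix HT-MG-430A arrays. The deposited values are log2 expression per probe set, normalized by the authors with RMA; the tool version and genome build are not given in the sources used here. Their base was read from the highest value, 13.826, which is 14522.5 at base 2 and would exceed the 16-bit scanner maximum of 65535 at base e.

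Of 22716 probe sets, 90 controls were left out and 22626 tested, without a filter on low values. Names came from the platform annotation, where 18003 tested probe sets had 1 symbol, 287 several and 4336 were not listed. Genotypes were compared within a subfield in a limma fit of all 3 genotypes. Subfields, and differences of differences, were compared in a fit of the 9 groups on 49 arrays, with the mouse as a random block (limma 3.58.1, R 4.3.3). P-values were adjusted by Benjamini-Hochberg over all probe sets, with calls at 0.05. Mouse numbers in the labels pair the subfields. The consensus correlation within a mouse was 0.117, and deviations of 47 same-mouse pairs correlated at a median of 0.119, against -0.00146 for other pairs. Genotypes share no mice. No 2 arrays held identical values.

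Genes were named as up to 10 called members with the largest differences in a comparison, the paralogs, stalk proteins, Rpsa and Rps6, and members that moved against the rest. Rpl4, Rps4x and the printed promoters were chosen after their values were seen. The members and lists were chosen with earlier results of these data known. The fit was run on simulated data with independent noise and added shifts larger than any member difference given here. That run does not cover small differences or arrays that share a mouse. The alternatives tried were a second quantile normalization, the Actb and 18S control differences as covariates, array weights, a filter on dim probe sets, all member probe sets, fits of only the groups compared, the methods' least significant difference test, no block and leaving out each array or mouse. The precision is limited by the 5 or 6 arrays in a group.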

Additional observations from a re-analysis of the deposited data

Results flagged for a closer look

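Of 468 tests of a group of 5 or 6 arrays for 1 array apart from the others, over 51 named genes and the median of the members, 25 found one. Chance gives about 1 in 20. Among DN mice in CA1, mouse4825 had Rpl13 at 9.06 (others 8.62 to 8.73). Among rTg4510 mice in CA1, mouse4549 had Rpl14 at 7.31 (others 6.49 to 6.71), mouse4666 had Rpl6 at 10.70 (others 10.47 to 10.53), and mouse4600 had Rpl9 at 9.99 (others 10.37 to 10.48) and Rps2 at 10.20 (others 10.50 to 10.62). Among DN mice in CA3, mouse4886 had Rpl8 at 9.37 (others 8.99 to 9.10), and mouse4883 had Rps26 at 8.55 (others 8.20 to 8.29). Among rTg4510 mice in CA3, mouse4666 had Rpl13 at 8.71 (others 8.91 to 9.02), and mouse4600 had Rpl14 at 5.59 (others 6.66 to 7.06). Among DN mice in DG, mouse4806 had Rpl13a at 9.33 (others 8.59 to 8.82) and Rpl29 at 9.52 (others 9.11 to 9.22). Among tTA mice in DG, mouse4580 had Rpl10 at 11.23 (others 10.98 to 11.03), mouse4570 had Rpl13 at 8.98 (others 9.66 to 9.83), Rpl13a at 9.05 (others 9.81 to 10.07), Rpl26 at 9.48 (others 10.01 to 10.20), Rpl36al at 11.07 (others 11.40 to 11.52), Rpl37a at 10.998 (others 11.27 to 11.30), Rpl7 at 9.87 (others 10.12 to 10.19) and Rps23 at 11.07 (others 11.47 to 11.58), and mouse4592 had Rpl27a at 10.86 (others 10.56 to 10.64) and Rpl3l at 3.18 (others 2.89 to 2.92). Among rTg4510 mice in DG, mouse4549 had Rpl10 at 11.08 (others 10.54 to 10.73), Rpl13 at 9.57 (others 8.88 to 9.07), Rps16 at 9.99 (others 9.36 to 9.59) and Rps23 at 11.41 (others 10.87 to 11.07). These are log2 levels. The test can flag only the lowest or highest array of a group. In DG it flagged tTA mouse4570 for 7 genes, each as the lowest, and rTg4510 mouse4549 for 4, each as the highest. Genes read on the same array are not independent tests.

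The rTg4510 minus tTA difference of Rpl17 was -0.57 in DG and -0.12 in CA1, and the difference in CA1 minus that in DG was 0.46 by the test of the difference itself (limma, adjusted p = 0.0457). That call was not kept in every fit that left out a mouse. The 18S ribosomal RNA control probe sets, which are outside the genes tested and enter only as a covariate in an alternative fit, had a 3-prime minus 5-prime difference of -0.35, -0.39 and -0.40 in tTA minus DN mice in CA1, CA3 and DG (exact permutation p = 0.00866, 0.00794 and 0.00433).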

How the results depend on the processing

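Under the alternatives other than leaving out an array, 103 recomputed counts of called ribosomal protein genes stayed within 1.5 times the count given above and 35 did not, 62 medians stayed within the spread between replicates and 4 did not. No result reversed. With the Actb covariate, tTA against DN gave 4 genes in CA1 (median 0.27) and 3 in DG (0.18), rTg4510 against DN gave 14, 3 and 1 in CA1, CA3 and DG, rTg4510 against tTA gave 1 in CA1 and 3 in DG, CA1 against CA3 in rTg4510 mice gave 9 and the rTg4510 minus tTA difference in CA1 minus DG gave 3. With the 18S covariate, added after seeing the data, tTA against DN gave 2 (median 0.22), 3 (0.32) and 16, rTg4510 against DN 4 and 0 in CA1 and CA3, and rTg4510 against tTA 1 and 4. Array weights gave 2 and 4 for rTg4510 against tTA in CA1 and CA3, 29 and 3 for rTg4510 against DN in CA3 and DG, 24 for CA1 against CA3 in DN mice and 2 for the CA1 minus DG difference. A second quantile normalization gave 2 for rTg4510 against DN in DG and 4 for CA1 against CA3 in rTg4510 mice. Without dim probe sets the latter was 4 and the CA1 minus DG difference 2. With only the groups compared, rTg4510 against tTA gave 1, 0 and 0 and rTg4510 against DN in DG 2, for which the methods' test gave 3. The share of all probe sets called under each alternative was not computed, and the cause of these moves was not tested.

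Without the mouse as a block, so that pairing by animal was not used, CA1 against CA3 gave 3 in tTA and 1 in rTg4510 mice, CA1 against DG in tTA mice gave 14 and the CA1 minus DG difference 0, and other counts stayed within 1.5 times. Leaving out 1 array or mouse gave, in CA1, CA3 and DG, 2 to 7, 2 to 7 and 0 to 22 genes for rTg4510 against tTA, 10 to 37, 5 to 25 and 0 to 2 for rTg4510 against DN and 32 to 46, 38 to 46 and 23 to 40 for tTA against DN. For CA1 against CA3, CA1 against DG and CA3 against DG it gave 4 to 14, 33 to 51 and 55 to 61 in DN, 1 to 5, 8 to 19 and 25 to 50 in tTA and 1 to 5, 2 to 5 and 16 to 23 in rTg4510 mice. The CA1 minus DG difference for rTg4510 against tTA ranged from 0 to 3 and the other 5 differences of differences from 0 to 0.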
